A study of Rattus norvegicus with 17 samples.

Results

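Probes for the synaptic vesicle and transmitter release machinery were examined in RNA of hippocampal synaptosomes, the pinched-off nerve endings that separate from a brain homogenate on centrifugation. A probe was taken when its current gene symbol belonged to the Syt, Syn, Vamp, Snap, Stx, Stxbp, Cplx, Sv2, Rims, Unc13 or Doc2 families or was Syp, Nsf, Bsn or Pclo. The symbol rule found 69 probes for 66 genes among the 22226 probes of the array. Of these, 44 probes for 43 genes were tested, because every array of 1 group or more detected them with a p under 0.05, as were 10457 probes in all, and 25 were left out. Of those, 17 were detected on no array, and 8 (Cplx4, Doc2a, Stx3, Stx16, Stxbp4, Sync, Syt13 and Unc13b) on some. Bsn, Cplx2, Snap23 and Snap29 had no probe with their symbol and were not analysed here. The rule also takes in 3 tested genes with other roles, Snapc1 and Snapc3 of the complex that activates small nuclear RNA genes and Snap91, a clathrin adaptor.

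Release of transmitter starts with a vesicle that carries synaptophysin, SV2 and a vesicle SNARE of the Vamp family and that synapsins hold in a reserve near the release site. Active zone proteins such as the RIMs, Munc13s and Piccolo dock and prime it, the vesicle SNARE zippers with syntaxin and SNAP-25 on the target membrane, complexin and synaptotagmin couple fusion to calcium, and NSF takes the spent SNARE complex apart. The members at the release site are hallmarks of neurons, while the syntaxins and Vamp proteins of endosomes and of constitutive secretion work in most cell types.

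The rats were male F1 hybrids of the Fischer 344 and Brown Norway strains, with 1 array per rat. The groups were 7 aged impaired rats and 5 aged intact rats, both 28 months old, and 5 adult rats, 12 months old. Aged rats were called impaired or intact from their probe trials in the Morris water maze, a test of spatial memory, relative to the adults. All 5 adult arrays lay on slide 1 and all 12 aged arrays on slide 2, so slide and age cannot be told apart, whereas the aged impaired and aged intact groups shared a slide. Levels are log2 intensities, on which a difference of 1 is a 2-fold change. The neqc scale subtracts a background estimated from the detection p-values. On these arrays that estimate had a standard deviation of 120 to 225 signal units, against 5.41 to 11.1 for an estimate that resists outlying probes, and it compresses differences of probes whose signal lies close to background. A second scale with the robust background is therefore used as well, mainly for probes close to background, and each value is given with its scale. Replicates are numbered as in the sample descriptions, which differ from the numbers in the sample titles.

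The labelled material held transcripts of several cell types. Of 10 neuron markers, 8 were tested and 0 were called with age, and their mean level on the robust scale was 9.61 to 9.87 in aged impaired, 9.60 to 9.71 in aged intact and 9.49 to 9.77 in adult arrays. Microglia markers had an aged minus adult difference above 0 on the neqc scale for 10 of 10 tested genes, where 4608 of the 10457 tested probes did. Of the 10, 1 was called, where 1.2% of all tested probes were called. Their mean level on the robust scale was 8.34 to 10.08 in aged impaired, 8.57 to 8.84 in aged intact and 8.18 to 8.35 in adult arrays. The aged impaired and adult ranges overlapped. Of the tested markers of astrocytes (8), oligodendrocytes (9) and their precursors (4), 0 were called. Choroid plexus was represented by only 2 tested markers, with Folr1, Kl and Prlr left out as not detected, and the red blood cell marker Alas2 and the endothelial markers Flt1 and Tek were left out likewise. The part of these markers in the values below was not tested. In bulk RNA, fewer nerve endings of a kind and less RNA in each cannot be told apart.

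One adult array stood apart. For 22 of the 44 probes (50%), adult replicate 4 lay outside the range of all the other arrays, 15 of them below and 7 above, and the same held for 44.7% of all tested probes. The next highest number was 9 of 44, on aged impaired replicate 6. Sv2b on the neqc scale was 11.22 on adult replicate 4, against 12.78 to 13.42 on the other adult arrays. Rims1 was 8.09 there, against 9.03 to 9.54, and Syn2 was 7.85, against 8.61 to 8.82. In the other direction, Syp was 13.76 on that array, against 13.12 to 13.64, and Stx8 was 10.02, against 9.53 to 9.68. The genes on which adult replicate 4 was low therefore included a vesicle glycoprotein, an active zone scaffold and a synapsin, and those on which it was high included a vesicle membrane protein and an endosomal syntaxin. Differences whose sign turns without this array are given with and without it.

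**Figure D1:**
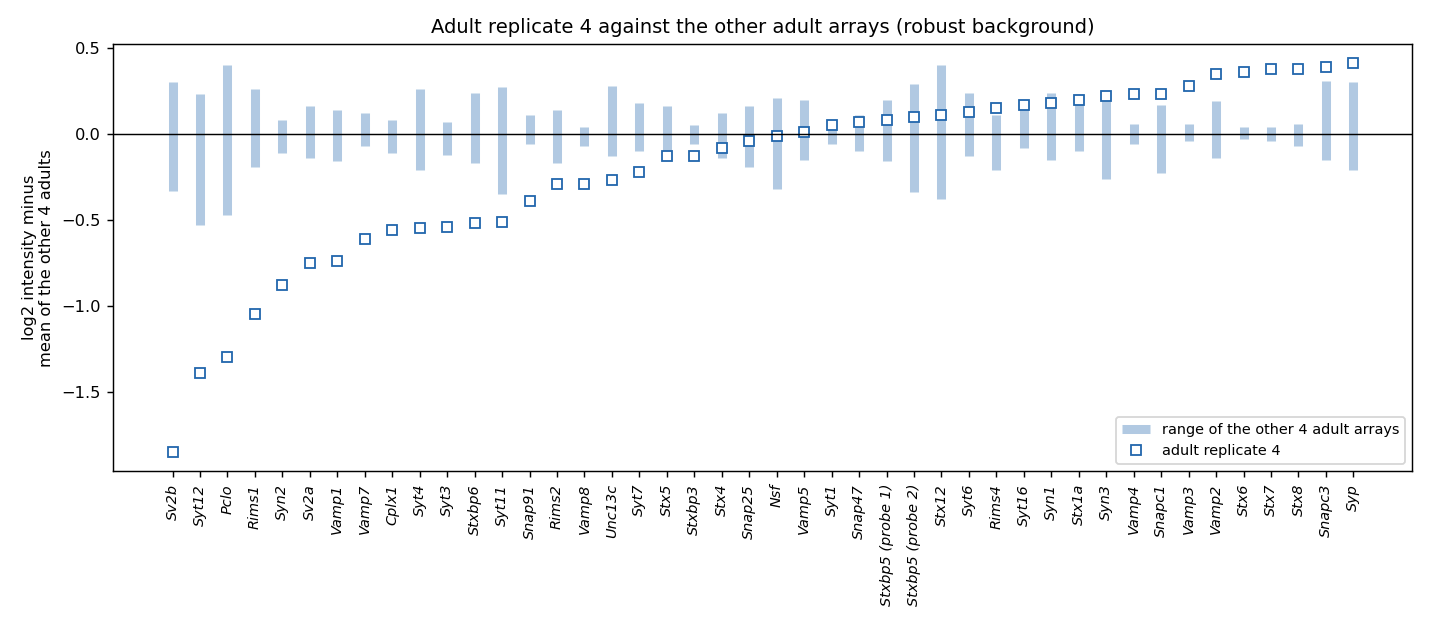
Each of the 44 probes has a place on the x axis, and the y axis is the difference of adult replicate 4 (open square) from the mean of the other 4 adult arrays in log2 units with the robust background, with bars spanning those 4 arrays. The differences are -1.85 for Sv2b, -1.39 for Syt12 and -1.30 for Pclo at the left, and Syp at the right lies above the other adults.

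No probe of the release machinery passed the test in any comparison. In aged against adult rats, with the aged groups given equal weight, 0 of 44 probes were called by limma at an adjusted p under 0.05, where 1.2% of all tested probes were called (125 of 10457, 51 higher and 74 lower with age). At an unadjusted p under 0.05 there were 5 of 44 (11.4%), against 17.2% of all tested probes. With the robust background the counts were again 0 of 44, against 1.06% of all tested probes called, and 4 of 44 (9.09%) at an unadjusted p under 0.05, against 18.5% of all tested probes. The arrays of the aged and adult rats failed to overlap for 0 of 44 probes, where 0.918% of all tested probes had arrays that did not overlap between the ages.

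Neither aged group taken alone gave a call. In aged intact against adult rats 0 of 44 probes were called by limma (0.306% of all tested probes), and in aged impaired against adult rats again 0 of 44 (0.363% of all). At an unadjusted p under 0.05 there were 3 and 6 probes of 44, against 12.7% and 16.3% of all tested probes. The test named in the study's methods compares the 3 groups, followed by pairwise tests and a 1.2-fold threshold without adjustment. Run on the neqc scale, it also took 0 of 44 in each comparison. It took 2.75% of all tested probes in aged intact and 2.86% in aged impaired against adult rats. The members' differences there ran from -0.23 to 0.19 and from -0.21 to 0.29. On this scale the fold threshold alone thus kept out every member in the first comparison and every member but Syn2 in the second. These counts of 0 were therefore largely set in advance. With the robust background, where this test was not run, the members' differences ran from -0.35 to 0.33 and from -0.40 to 0.41. Both comparisons share the 5 adult arrays.

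The members were spread to both sides of no difference. On the neqc scale the aged minus adult difference was above 0 for 24 of 44 probes and below 0 for 20, with a median of 0.01, against a median of -0.01 over all tested probes. Without adult replicate 4 it was above 0 for 21 and below 0 for 23. Single probes ran between -0.20 for Snap47 and 0.22 for Syn2, with a median standard error of 0.06. The 95% interval of the difference lay within a 1.5-fold change either way for 42 of 44 probes on the neqc scale (95.5%, against 96.0% of all tested probes) and for 38 of 44 on the robust scale (86.4%, against 92.7%). The neqc count is helped by the compression of probes near background. Sv2b was outside the bound on both scales, with intervals of -0.44 to 0.80 on the neqc scale and -0.36 to 0.71 on the robust scale, and Syn2 (-0.15 to 0.59) on the neqc scale. On the robust scale Pclo (-0.06 to 0.77), Syt12 (-0.06 to 0.76), Stx1a (-0.62 to -0.08), Syn1 (-0.61 to 0.05) and Syt4 (-0.17 to 0.60) also reached past it.

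**Figure D2:**
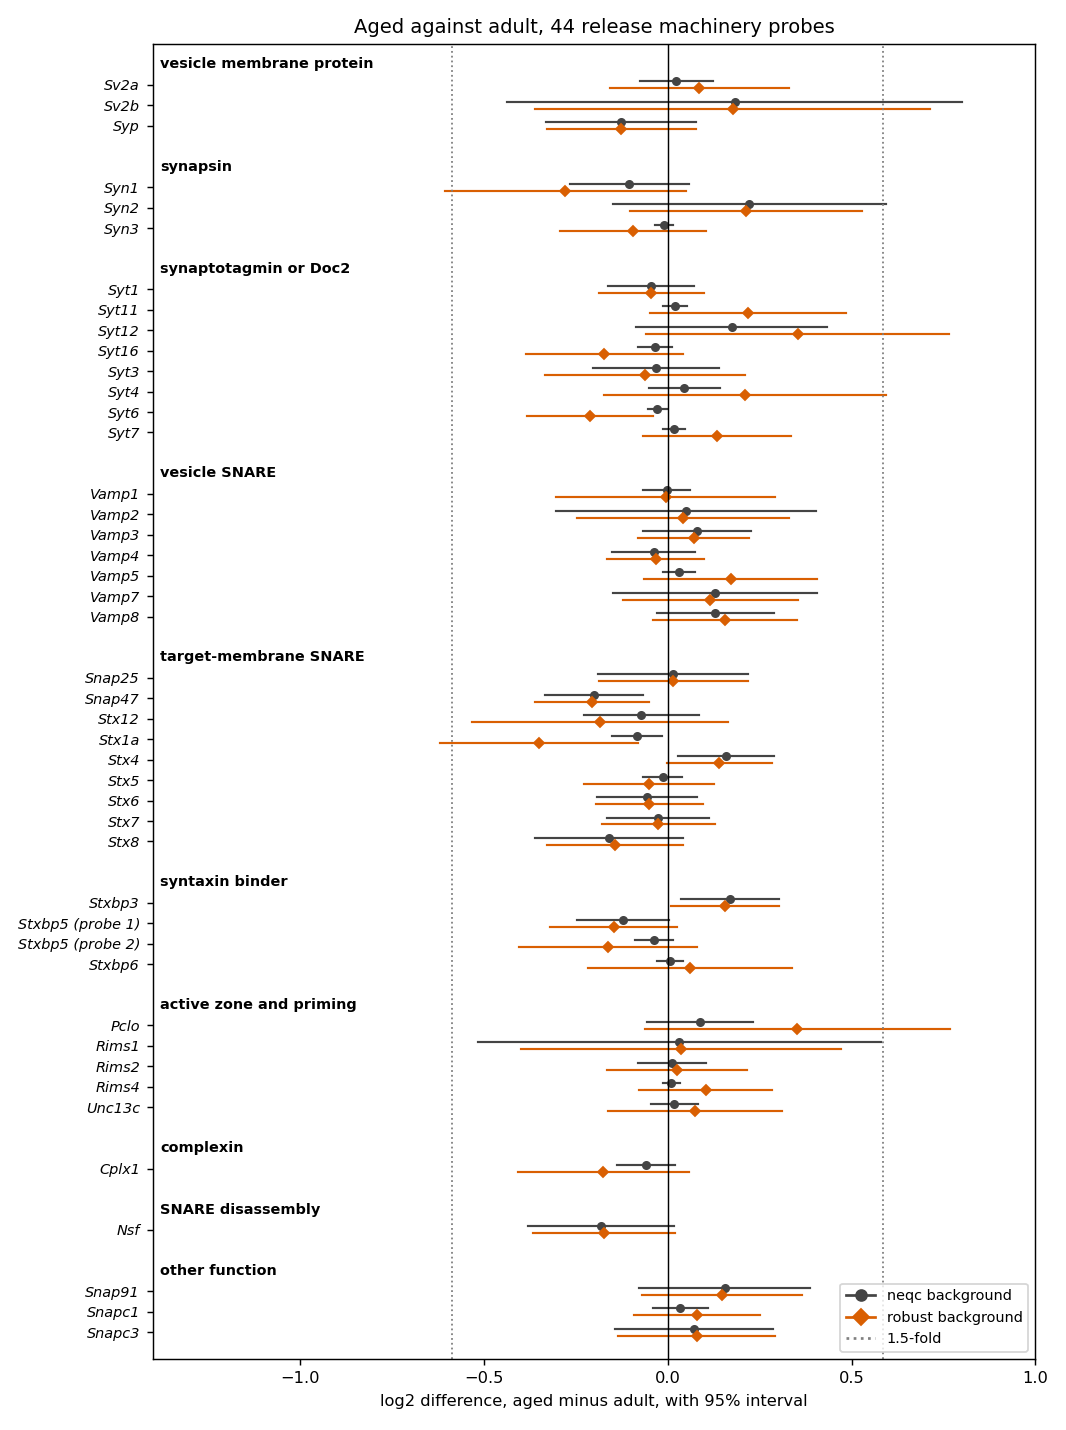
The x axis is the log2 difference of aged minus adult rats with its 95% interval, for each of the 44 probes grouped by role, on the neqc scale (grey circles) and with the robust background (orange diamonds), and dotted lines mark a 1.5-fold change. Differences lie on both sides of 0 in most roles, and the robust intervals of Stx1a, Syt6, Snap47 and Stxbp3 do not cross 0, although no adjusted p was under 0.05.

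Among the vesicle membrane proteins, Syp encodes synaptophysin, the most widely used marker of synaptic vesicles. Syp on the neqc scale was 13.02, 13.31 and 13.41 as the lowest, median and highest of the aged impaired arrays, 13.21, 13.16, 13.35, 13.50 and 13.36 in the aged intact arrays, and 13.21, 13.38, 13.12, 13.76 and 13.64 in the adult arrays. The groups overlapped, and the highest of all was adult replicate 4. The aged minus adult difference was -0.13 ± 0.10 (SE; adjusted p = 0.51 by limma), and -0.04 without that array. Sv2b, 1 of the SV2 glycoproteins of vesicles, was 12.28, 12.96 and 13.52 in the aged impaired arrays, 12.49, 12.86, 13.01, 13.14 and 12.91 in the aged intact arrays, and 12.78, 13.42, 13.25, 11.22 and 13.00 in the adult arrays. Only adult replicate 4 lay below every aged array. Its difference was 0.18 ± 0.29 with that array and -0.19 without it (adjusted p = 0.78 and 0.79 by limma), so its sign turned with a single library. Without that array 0 of the 3 vesicle membrane probes lay above 0, and with it 2 did. Sv2a, the target of the antiepileptic levetiracetam, averaged 7.34 ± 0.08 in aged impaired, 7.35 ± 0.04 in aged intact and 7.32 ± 0.13 in adult arrays on the neqc scale (SD; n = 7, 5 and 5), a difference of 0.02 with adult replicate 4 and -0.03 without it. The probe for Sv2c was not detected on any array.

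Synapsins tether vesicles to actin and to each other. Syn1 on the robust scale was 6.49, 7.03 and 7.56 as the lowest, median and highest of the aged impaired arrays, 7.03, 7.22, 7.13, 7.99 and 7.13 in the aged intact arrays, and 7.27, 7.43, 7.30, 7.60 and 7.66 in the adult arrays. Of the 5 aged intact arrays, 4 lay below every adult array and replicate 4 lay above them all. The robust difference in aged impaired against adult rats was -0.40 (interval -0.76 to -0.04; adjusted p = 0.23 by limma), against -0.16 on the neqc scale (adjusted p = 0.36), and in aged intact against adult rats it was -0.15 (interval -0.54 to 0.23). Syn2 went the other way on the neqc scale, at 8.84 ± 0.27 in aged impaired, 8.71 ± 0.36 in aged intact and 8.55 ± 0.40 in adult arrays (SD). The lowest of the Syn2 values, 7.85, was again adult replicate 4, and the aged minus adult difference was 0.22 ± 0.17 (SE) with that array and 0.05 without it. Syn3 differed by -0.01 between aged and adult rats on the neqc scale and by -0.09 ± 0.09 (SE) on the robust scale.

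Some synaptotagmins are calcium sensors of vesicle fusion, and Syt1 is the fast sensor of most forebrain synapses. Syt1 on the neqc scale was 13.81, 14.00 and 14.18 as the lowest, median and highest of the aged impaired arrays, 13.90, 13.92, 14.02, 14.08 and 14.22 in the aged intact arrays, and 14.09, 13.98, 14.05, 14.09 and 14.04 in the adult arrays. The adult values lay inside the range of the aged arrays. The difference was -0.04 ± 0.05 (SE), with an interval of -0.16 to 0.07. Of the 8 tested synaptotagmin probes, 4 lay above 0 and 4 below in aged against adult rats. Syt6, which is concentrated in the acrosome of sperm as well as present in brain, was 5.49, 5.63 and 5.88 on the robust scale in the aged impaired arrays, 5.87, 5.50, 5.49, 5.71 and 5.72 in the aged intact arrays, and 5.72, 5.78, 6.09, 5.97 and 5.81 in the adult arrays. It was lower by 0.21 on average in aged than adult rats on that scale, and the groups overlapped (difference -0.21 ± 0.08; adjusted p = 0.18 by limma), and its difference on the neqc scale was -0.03. Syt12 on the robust scale had the highest difference of these 8 probes, 0.35 ± 0.20 (SE; 0.17 on the neqc scale), and 0.07 without adult replicate 4, with 6.59 on adult replicate 4 and 7.45 on replicate 5 below the 8.12 to 8.21 of the remaining adult arrays. Syt16 was -0.28 (interval -0.51 to -0.04) in aged impaired and -0.07 (interval -0.32 to 0.19) in aged intact rats against adults on the robust scale, with adjusted p = 0.21 and 0.85 by limma, and -0.05 and -0.01 on the neqc scale. Among the other members, Syt7 and Syt11 differed by 0.13 and 0.22 on the robust scale between aged and adult rats, and Syt3 and Syt4 by -0.06 and 0.21. Without adult replicate 4 the Syt11 and Syt4 differences were 0.12 and 0.10. Syt11 was detected on all aged arrays and on 3 of 5 adult arrays, so it was kept through the aged groups, where it was higher. The calcium sensor Doc2a was left out because it was detected on only 6 of 7 aged impaired, 4 of 5 aged intact and 3 of 5 adult arrays.

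The vesicle SNARE Vamp2, or synaptobrevin-2, is the main one of hippocampal vesicles. On the neqc scale it was 8.44, 8.59 and 9.36 as the lowest, median and highest of the aged impaired arrays, 8.93, 8.54, 8.46, 9.02 and 8.58 in the aged intact arrays, and 8.83, 8.48, 8.47, 9.02 and 8.71 in the adult arrays. Each group held both high and low arrays. The spread within groups on that scale, a standard deviation of 0.325, was over 2 times the median of 0.119 for the 44 probes. That median is lowered by the compression of probes near background, and on the robust scale the values were 0.285 and 0.199. The aged minus adult difference of Vamp2 on the neqc scale was 0.05 ± 0.17 (SE). Vamp1, which takes the place of Vamp2 at neuromuscular and some central synapses, differed by -0.01 ± 0.14 (SE) on the robust scale. Vamp8, an endosomal SNARE that is best known from exocytosis in secretory and blood cells, averaged 7.95 ± 0.15 in aged impaired, 7.86 ± 0.18 in aged intact and 7.78 ± 0.10 in adult arrays (SD), an aged minus adult difference of 0.13 (adjusted p = 0.39 by limma). Vamp3, also called cellubrevin, and Vamp5 differed by 0.08 and 0.03 on the neqc scale, and Vamp4 and Vamp7, of the trans-Golgi and endosomal route, by -0.04 and 0.13. Without adult replicate 4 the signs of Vamp4 and Vamp7 turned, at 0.02 and -0.0047. Of the 7 vesicle SNARE probes, 5 lay above 0 and 2 below.

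Of the 9 tested probes for SNAREs of target membranes, 2 lay above 0 and 7 below in aged against adult rats, and 4 above and 5 below without adult replicate 4. SNAP-25 is the partner of syntaxin-1 at the release site. Snap25 on the neqc scale was 12.94, 13.06 and 13.39 as the lowest, median and highest of the aged impaired arrays, 13.05, 13.05, 13.00, 13.60 and 13.33 in the aged intact arrays, and 13.31, 13.10, 13.23, 13.11 and 12.96 in the adult arrays. Its difference was 0.02 ± 0.10 (SE), with the groups overlapping throughout. Snap47, a SNAP-25 relative found on intracellular membranes, had the smallest p of the 44 probes in aged against adult rats. It was 7.94, 8.07 and 8.33 on the neqc scale in the aged impaired arrays, 8.07, 7.92, 8.01, 8.23 and 8.04 in the aged intact arrays, and 8.38, 8.23, 8.16, 8.33 and 8.27 in the adult arrays. Of the 12 aged arrays, 9 lay below every adult array, and aged impaired replicate 6 lay among the highest adults. The difference was -0.20 ± 0.06 (SE; unadjusted p = 0.0057, adjusted p = 0.12 by limma), and without adult replicate 4 it was -0.18 (adjusted p = 0.32).

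Stx1a encodes syntaxin-1A, which anchors the SNARE complex in the presynaptic membrane. On the robust scale Stx1a was 5.96, 6.37 and 6.89 as the lowest, median and highest of the aged impaired arrays, 6.43, 6.29, 6.12, 6.81 and 6.54 in the aged intact arrays, and 6.92, 6.64, 6.68, 6.94 and 6.73 in the adult arrays. Adult replicates 1 and 4 lay above every aged array, and the other adults lay inside the aged range. The robust difference was -0.35 ± 0.13 (SE; adjusted p = 0.16 by limma), against -0.08 ± 0.03 on the neqc scale (adjusted p = 0.20), so the size of this value depends on the background used. Without aged impaired replicate 6, the robust difference was -0.39 (adjusted p = 0.097), and without adult replicate 4 it was -0.31 (adjusted p = 0.39).

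Although the groups did not separate, some of the probes varied together from rat to rat. Deviations from the group means over the 17 arrays were correlated for all 946 pairs of the 44 probes. The median r was 0.02, and 6 pairs (0.634%) reached an r of 0.8 on the neqc scale, against 0.321% of all pairs of tested probes. Stx1a and Vamp2 had the highest r, 0.88 (Spearman's rho = 0.89), which was 0.82 without the 2 arrays farthest out and 0.87 over the 12 aged arrays alone. For each pair, the 2 farthest arrays were chosen by the deviations of the first-named gene alone. Arrays far out only for the second gene stayed in. Snap47 and Vamp2 had an r of 0.87 (rho = 0.83), and 0.82 without the 2 farthest arrays. Snap47 and Stx1a had an r of 0.83 (rho = 0.81), and 0.68 without them. These 3 SNARE genes were thus high and low on the same arrays, and among the aged impaired arrays replicates 3 and 6 had the highest Vamp2 and Snap47. The pairs were picked as the highest of 946, so the values are a description with no test. Nor is the pattern particular to SNAREs, since 111 of the other 10456 tested probes (1.06%) had an r of at least 0.8 with Vamp2. Cplx1 and Rims1 had an r of 0.85 (rho = 0.79), and 0.73 without the 2 farthest arrays. Stx12 and the second Stxbp5 probe had an r of 0.83 (rho = 0.81), and again 0.83 without the 2 farthest for Stx12. Nsf and the first Stxbp5 probe had an r of 0.85 and a rho of 0.58, and 0.58 without the 2 farthest arrays. Syt1 and Vamp8 went in opposite directions (r = -0.84, rho = -0.86), with an r of -0.91 without the 2 farthest arrays.

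**Figure D3:**
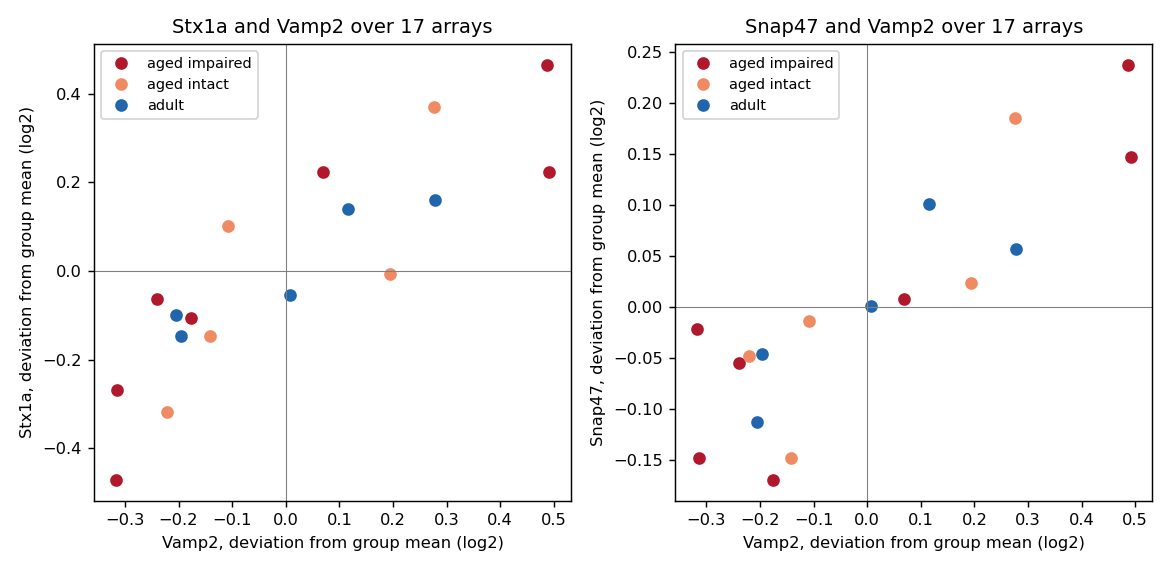
Each point is 1 of the 17 arrays, with the deviation of Vamp2 from its group mean on the x axis and that of Stx1a (left) or Snap47 (right) on the y axis, in log2 units with the robust background, colored by group. On this scale the correlation is 0.86 for Stx1a and 0.87 for Snap47, and arrays of all 3 groups lie along both trends.

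The upstream sequences of these 3 SNARE genes, which varied together, are shown here as the 250 bases before the annotated start, 5′ to 3′, from RefSeq on build GRCr8, with GC boxes (GGGCGG, or CCGCCC for the opposite strand) in capitals.
Vamp2, chr10:54292539-54292788, plus strand: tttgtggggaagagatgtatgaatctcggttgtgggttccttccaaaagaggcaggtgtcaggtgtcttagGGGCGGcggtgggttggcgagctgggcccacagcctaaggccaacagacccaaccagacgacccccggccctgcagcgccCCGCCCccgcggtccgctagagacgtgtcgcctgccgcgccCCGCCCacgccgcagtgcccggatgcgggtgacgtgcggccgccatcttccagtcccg
Stx1a, chr12:27306472-27306721, minus strand: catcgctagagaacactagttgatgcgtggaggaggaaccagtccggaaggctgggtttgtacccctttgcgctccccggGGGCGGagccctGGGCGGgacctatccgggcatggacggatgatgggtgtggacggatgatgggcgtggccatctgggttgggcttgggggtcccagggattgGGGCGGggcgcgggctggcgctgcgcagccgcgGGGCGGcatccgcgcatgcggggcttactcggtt
Snap47, chr10:44733950-44734199, minus strand: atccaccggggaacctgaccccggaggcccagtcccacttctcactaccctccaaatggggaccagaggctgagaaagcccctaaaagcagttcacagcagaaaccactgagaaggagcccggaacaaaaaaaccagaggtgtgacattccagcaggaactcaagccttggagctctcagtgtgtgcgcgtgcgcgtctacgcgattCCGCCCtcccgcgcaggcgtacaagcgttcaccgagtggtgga
The stretch held 3 GC boxes in Vamp2, 4 in Stx1a and 1 in Snap47. The 43 tested genes were looked up by gene ID, and 33 of them matched, with 37 windows of 250 bases before to 50 after a start. A GC box was found on either strand in 26 of those 37 windows (70.3%), and in 33.1% of all 33469 windows in the table. The windows of the release genes also held more G and C in all, with a median of 62% against 51.7%. The cAMP response element TGACGTCA, which reads the same on both strands, was in 2 of the 37 windows (5.41%) and in 1.83% of all. The TATA box TATAAA, on either strand, was in 3 of the 37 (8.11%) and in 14.2% of all. These matches are descriptions of the letters and were set against no level. All windows together covered 27457 genes, not only those tested, and no share over the tested genes was taken.

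Stx4, the syntaxin of constitutive and postsynaptic plasma membrane fusion, lay the other way. On the neqc scale it was 9.41, 9.66 and 9.79 in the aged impaired arrays, 9.41, 9.33, 9.51, 9.57 and 9.54 in the aged intact arrays, and 9.49, 9.55, 9.26, 9.33 and 9.37 in the adult arrays. Of the 7 aged impaired arrays, 6 were above every adult array, and replicate 1 was not. The difference in aged impaired against adult rats was 0.24 ± 0.07 (SE; unadjusted p = 0.0023, adjusted p = 0.12 by limma), and in aged intact against adult rats 0.07 ± 0.07. The endosomal syntaxin Stx8 was -0.16 ± 0.09 in aged against adult rats, and -0.08 without adult replicate 4. Stx5, Stx6, Stx7 and Stx12, of the Golgi and endosomes, differed by -0.01, -0.06, -0.03 and -0.07 between aged and adult rats on the neqc scale. Without adult replicate 4, Stx6 and Stx7 were on the other side of 0, at 0.03 and 0.05.

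**Figure D4:**
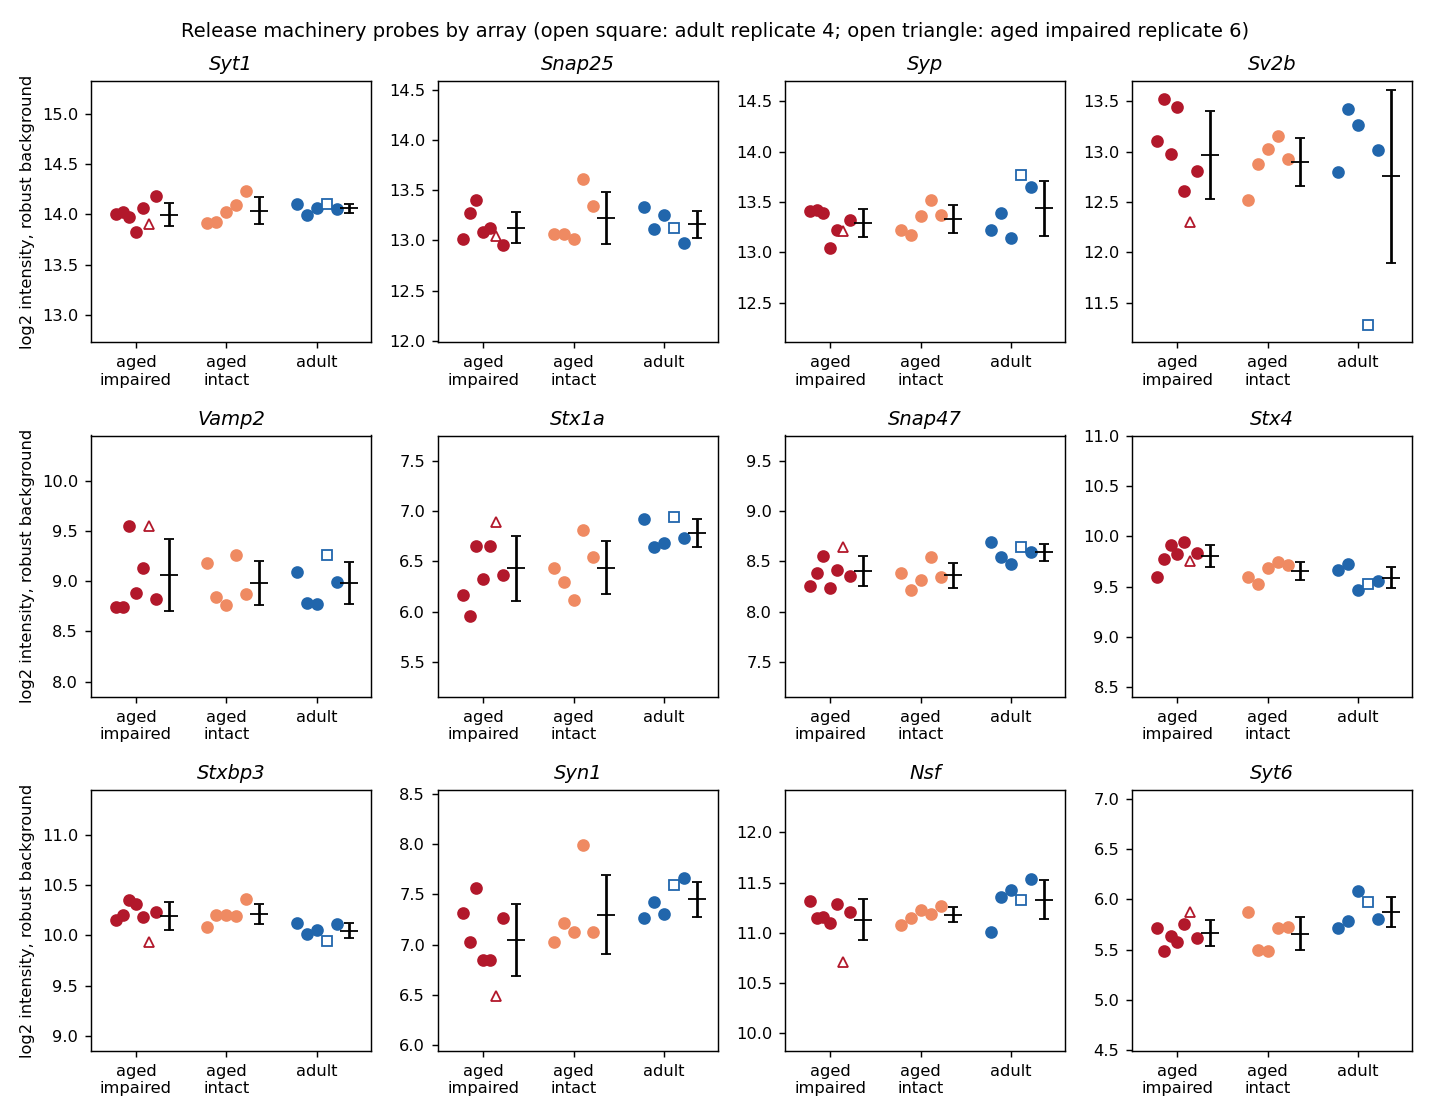
Each point is 1 array, on the log2 scale with the robust background, for 12 probes in aged impaired (7 arrays), aged intact (5) and adult rats (5), with the mean and SD beside each group and every panel spanning the same number of log2 units. The groups overlap in every panel, and adult replicate 4 (open square) lies far below the other arrays for Sv2b.

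Syntaxin binders regulate the assembly of the complex. Stxbp3, or Munc18c, is the partner of syntaxin-4. Stxbp3 on the neqc scale was 9.78, 10.08 and 10.25 as the lowest, median and highest of the aged impaired arrays, 9.96, 10.09, 10.08, 10.07 and 10.25 in the aged intact arrays, and 9.99, 9.87, 9.91, 9.79 and 9.99 in the adult arrays. Apart from the lowest aged impaired array, replicate 6, and the lowest aged intact array, the aged arrays lay above the adult ones. Its difference was 0.17 ± 0.06 (SE; adjusted p = 0.19 by limma), and 0.14 without adult replicate 4 (adjusted p = 0.46). Stxbp5, or tomosyn, which competes with vesicle SNAREs for syntaxin, had 2 tested probes that differed by -0.12 ± 0.06 and -0.04 ± 0.02 on the neqc scale, and by -0.15 ± 0.08 and -0.16 ± 0.12 on the robust scale (SE). Stxbp6, or amisyn, which also binds syntaxin, differed by 0.06 ± 0.13 on the robust scale, and by -0.04 without adult replicate 4. Its probe was detected on 6 of 7 aged impaired, 5 of 5 aged intact and 4 of 5 adult arrays. It was thus kept through the aged intact group alone, where its mean was highest. Both Stxbp5 probes were lowest on aged impaired replicate 6 of all 17 arrays. The probes for Stxbp2 and Stxbp5l, and another probe for Stxbp5, were not detected on any array.

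Active zone and priming genes lay slightly above 0 for 5 of 5 tested probes in aged against adult rats, with a median of 0.02 on the neqc scale and 0.07 on the robust scale, and for 3 of 5 without adult replicate 4. Rims1, the scaffold that links vesicles to calcium channels, was 8.30, 8.90 and 9.86 on the neqc scale as the lowest, median and highest of the aged impaired arrays, 8.68, 8.97, 9.12, 9.87 and 8.95 in the aged intact arrays, and 9.07, 9.34, 9.03, 8.09 and 9.54 in the adult arrays. Its within-group standard deviation of 0.502 was second to that of Sv2b, 0.57. Its difference was 0.03 ± 0.26 (SE) with every array and -0.20 without adult replicate 4. Pclo, or Piccolo, a giant active zone scaffold, had a robust difference of 0.35 ± 0.20 (SE; 0.09 on the neqc scale), and 0.09 without adult replicate 4, with 5.74 on adult replicate 4 below the 6.73 to 7.61 of the aged arrays. Unc13c and Rims4, a priming factor and a short RIM isoform gene, differed by 0.07 ± 0.11 and 0.10 ± 0.09 on the robust scale, and Rims2 by 0.03 ± 0.09. The Rims2 difference was -0.03 without adult replicate 4, and another Rims2 probe was not detected on any array. The probe for Unc13a, the main Munc13 of the forebrain, was detected on 0 of 17 arrays, and that for Unc13b on 5 of 7 aged impaired, 4 of 5 aged intact and 4 of 5 adult arrays.

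Complexin-1 clamps and then promotes fusion. Cplx1 on the robust scale was 6.64, 6.85 and 7.18 as the lowest, median and highest of the aged impaired arrays, 6.87, 6.93, 6.72, 7.23 and 6.72 in the aged intact arrays, and 7.04, 7.23, 7.20, 6.59 and 7.14 in the adult arrays. Adult replicate 4 was the lowest of all the arrays and the other adult arrays were in the upper range. The robust difference was -0.17 ± 0.11 (SE; adjusted p = 0.41 by limma; -0.06 on the neqc scale), and -0.29 without that array (adjusted p = 0.26). Nsf, the ATPase that recycles SNAREs, was 10.62, 11.10 and 11.26 on the neqc scale in the aged impaired arrays, 11.01, 11.08, 11.17, 11.13 and 11.21 in the aged intact arrays, and 10.94, 11.30, 11.37, 11.27 and 11.49 in the adult arrays. All 12 aged arrays lay below 4 of the 5 adult arrays, and adult replicate 1 lay below most of them. The difference was -0.18 ± 0.09 (SE; adjusted p = 0.34 by limma). The 3 tested genes of other function lay above 0, with differences of 0.15 for Snap91 (0.07 without adult replicate 4), 0.07 for Snapc3 and 0.03 for Snapc1 on the neqc scale.

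Aged impaired and aged intact rats were compared on the same slide, at the same age. By limma, 0 of 44 probes were called, as were 0% of all tested probes, while 1 of 44 (2.27%) and 347 of all tested probes (3.32%) had an unadjusted p under 0.05. The test of the study's methods without adjustment took 0 of 44 probes and 0.163% of all tested probes. Here too the fold threshold alone kept out every member, since their differences ran from -0.14 to 0.17 on the neqc scale. The impaired minus intact difference was above 0 for 20 probes and below 0 for 24, with a median of -0.01, and its 95% interval lay within a 1.5-fold change for 42 of 44 probes on the neqc scale (95.5%, against 97.5% of all tested probes) and 40 of 44 on the robust scale (90.9%, against 95.3%). Stx4 was the single probe with an unadjusted p under 0.05. It was 9.64 ± 0.13 in aged impaired and 9.47 ± 0.10 in aged intact arrays (SD), a difference of 0.17 ± 0.07 (SE; unadjusted p = 0.023, adjusted p = 1 by limma). On the robust scale the Stx4 difference was 0.15 (interval -0.0046 to 0.31). The next 4 by p were Syt16 (-0.04 ± 0.02), Syt3 (-0.14 ± 0.09), Stx12 (-0.11 ± 0.08) and Vamp1 (-0.04 ± 0.03), each lower on average in aged impaired rats and none with an adjusted p below 1. For Syt1, Snap25 and Syp, the impaired minus intact differences were -0.04, -0.09 and -0.04, with intervals of -0.17 to 0.09, -0.32 to 0.13 and -0.27 to 0.18.

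Beyond these families, 89 other genes of vesicle release and recycling were listed, of which 61 were tested with 1 probe each. In aged against adult rats 0 of 61 were called by limma, against 1.2% of all tested probes. An unadjusted p under 0.05 was found for 9 (14.8%, against 17.2% of all), of which 8 were lower and 1 higher in aged rats. The split by direction over all probes with an unadjusted p under 0.05 was not taken. Of the 61, 25 lay above 0, where 4608 of the 10457 tested probes did. The median difference was -0.03, against -0.01 over all tested probes. Snapin, a SNARE-associated protein, and Rab3d, a small GTPase of secretory vesicles, came nearest. They differed by 0.33 ± 0.08 and -0.20 ± 0.05 (SE), each with an adjusted p of 0.062 by limma. Dnm1, the dynamin of vesicle endocytosis, differed by -0.20 ± 0.07 and Amph, its partner amphiphysin, by -0.25 ± 0.10, with adjusted p = 0.18 and 0.23 by limma. Slc17a6, a vesicular glutamate transporter, had the lowest difference of the 9, -0.37 ± 0.17 (SE; adjusted p = 0.29 by limma). In the impaired against intact comparison 0 of 61 were called and 0 had an unadjusted p under 0.05, against 0% and 3.32% of all tested probes.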

How the data were processed

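Hippocampal synaptosome RNA from 17 rats was hybridized to RatRef-12 BeadChips (Illumina). The deposited intensities are average bead signals that the authors exported with neither background subtraction nor normalization (the submitters' processing notes name GenomeStudio 1.0.6), and the deposited detection p-values compare each probe with negative control beads. The second deposited table held the same intensities (largest difference 0). Arrays give no read depth, so the number of arrays limits precision.

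Log2 intensities were computed with the steps of neqc in limma 3.58.1 (R 4.3.3; background from the detection p-values, offset 16, quantile normalization). The robust scale replaced the background mean and standard deviation by estimates from medians and quartiles. Probes were kept when every array of 1 group or more detected them with a p under 0.05. One linear model held all 3 groups (lmFit, eBayes), and p-values were adjusted over the 10457 probes by Benjamini-Hochberg at 0.05. Adjusted p on the neqc scale with every array come from this fit. Those on the robust scale, or without an array, come from the same model refitted to those values. Leaving out an array repeated the filter and the adjustment, over 10576 probes without adult replicate 4. With 1 array per rat, p-values measure the spread between rats. The scripts were tested on simulated data. Symbols came from the platform annotation, updated by Entrez ID for 13151 of 13192 probes. The members, roles and lists were chosen with earlier results of these data known. Named probes are those called in any setting, the 3 smallest p per role in aged against adult rats, the 5 smallest in impaired against intact rats, and a list of core release genes. The remaining members, such as Vamp4 and Stx7, fell outside these rules and were named after their values were seen. Tried beside this were no or a robust background, median scaling, no normalization, other detection filters, only the groups compared, array weights, a replicate block, the methods' test with and without adjustment, and leaving out each of the 17 arrays. Water maze scores were not used here.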

Additional observations from a re-analysis of the deposited data

Results flagged for a closer look

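Among 99 groups of arrays (33 named probes in 3 groups each, neqc scale), 6 held 1 array far from the rest by Dixon's criterion, where chance flags about 1 in 20 groups. Of the 6, 3 were aged impaired replicate 6, as the lowest array: Nsf at 10.62 against 11.03 to 11.26 on the others of its group, and Stxbp5 at 7.56 against 7.83 to 7.93 for the first probe and at 6.96 against 7.05 to 7.09 for the second. Rims4 was 6.88 on aged impaired replicate 1, against 6.91 to 6.92. Syn1 was 7.74 on aged intact replicate 4, the highest, against 7.24 to 7.32. Syn2 was 7.85 on adult replicate 4, the lowest, against 8.61 to 8.82. Why these arrays lie apart was not tested.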

How the results depend on the processing

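No member was called in either direction in any comparison under any of the 30 alternatives, and 0 of 44 stayed the count throughout. In the methods' tests, run on the neqc scale only, the fold threshold alone kept out every member, except Syn2 in aged impaired against adult rats. The median difference of the 44 probes kept within the spread between arrays except without normalization, where it was 0.255 in aged against adult, 0.212 in aged intact against adult and 0.293 in aged impaired against adult rats. Mean signals were 313 to 617 on the aged arrays and 342 to 387 on the adult arrays, and their part in this was not tested. No member had passed the test, so the following changes of sign concern differences that had missed the threshold. In aged against adult rats they were, without normalization, Cplx1 0.109, Nsf 0.0486, Snap47 0.0319, Stx12 0.0903, Stx5 0.213, Stx6 0.155, Stx7 0.193, Stx8 0.0612, Stxbp5 (probe 1) 0.0927, Stxbp5 (probe 2) 0.129, Syn1 0.0168, Syn3 0.174, Syp 0.141, Syt1 0.241, Syt16 0.127, Syt3 0.188, Syt6 0.115, Vamp1 0.235, Vamp4 0.172. With median scaling they were Rims1 -0.0276, Syt1 0.0105, Vamp2 -0.0146. With array weights they were Rims1 -0.172, Rims2 -0.0267, Snap25 -0.0339, Stx6 0.00812, Stx7 0.0309, Stxbp6 -0.0013, Sv2a -0.036, Sv2b -0.192, Unc13c -0.002, Vamp4 0.0029. With 2 alternatives added after seeing the data, the robust background and without adult replicate 4 gave Rims1 -0.172, Rims2 -0.0319, Stx6 0.0232, Stx7 0.0508, Stxbp6 -0.0435, Sv2a -0.064, Sv2b -0.192, Vamp4 0.0137, Vamp7 -0.00541, and the robust background and without aged impaired replicate 6 gave Vamp1 0.0224. Leaving out 1 array at a time gave Rims1 -0.198 to 0.164; Rims2 -0.0148 to 0.0364; Snap25 -0.0343 to 0.0588; Stx5 -0.0228 to 0.00134; Stx6 -0.0859 to 0.0263; Stx7 -0.0578 to 0.0531; Stxbp6 -0.0033 to 0.0162; Sv2a -0.027 to 0.0549; Sv2b -0.195 to 0.354; Syt3 -0.0932 to 0.000101; Vamp1 -0.0286 to 0.012; Vamp2 -0.00906 to 0.128; Vamp4 -0.0672 to 0.0158; Vamp7 -0.0047 to 0.197. In aged impaired against aged intact rats the changes were Snap25 0.0292, Syp 0.0702 without normalization and Syt1 0.0164 with array weights, and leaving out 1 array gave Snap25 -0.146 to 0.00509; Syp -0.0808 to 0.00555; Syt1 -0.0755 to 0.00684. The cause of these changes was not tested.

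The sample descriptions number the arrays from 1 within each group, and no label ties these numbers to shared animals or batches: over 15 pairs of same-numbered arrays, deviations from the group means correlated between -0.381 and 0.238. With the replicate block as a random effect (correlation -0.05), the median difference was 0.01 and 0 of 44 probes were called. The methods' test and the fit with only the groups compared gave no value for aged against adult rats, which joins 2 groups. Adult and aged arrays lay on different slides, and signal close to background limits what Stx1a, Syt6 and similar probes can show.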
